A study of Mus musculus with 17 samples.

Results

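The 41 genes described here are transcripts of blood cells, measured in bone cells that were sorted against blood cells. They were chosen by name, for the blood lineage that each is known to mark, from the 55335 genes in the count files, with earlier results of these data known. The 41 genes fall into 6 lineages, with 12 neutrophil granule genes, 4 monocyte and macrophage genes, 5 pan-leukocyte genes, 7 lymphoid genes, 2 progenitor and mast cell genes and 11 erythroid genes, and all 41 were found in the files. RNA sequencing was performed on 17 libraries of mouse bone, 9 of osteoprogenitor cells (OPCs) and 8 of skeletal stromal/stem cells (SSCs), to compare mice carrying the 1013 allele of Cxcr4 with wild-type (WT) mice. Cxcr4 is the receptor of the chemokine Cxcl12, and 1013 is a knock-in allele that shortens the receptor's C-terminal tail, carried on 1 chromosome in +/1013 mice and on both in 1013/1013 mice. Each group held 3 libraries, and only 1013/1013 SSCs had 2. The study's methods give female littermates between 8 and 12 weeks old as the general rule for its mice, and each library came from a pool of 3000 cells of 3 mice. Bones were centrifuged to expel the marrow and then digested with collagenase, and all groups shared a gate negative for CD45, for a lineage cocktail that included Ter119, and for c-Kit, CD71 and CD31, and positive for CD51. Within that gate, SSCs were Sca-1+ PDGFRα+ and OPCs were Sca-1- and PDGFRα+/-. Ptprc encodes CD45, Kit encodes c-Kit and Tfrc encodes CD71, so these 3 genes were themselves used to exclude cells. The gate acts on surface protein, and the libraries hold RNA. In pools of this kind, fewer cells of a type and less RNA per cell cannot be told apart, and the p-values below measure the spread between these pools only.

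Neutrophils fill their granules in an ordered way as they mature. Promyelocytes make the primary granule proteins Mpo, Elane and Prtn3, myelocytes and metamyelocytes make the secondary and tertiary granule proteins Ngp, Camp, Ltf, Lcn2, Cd177 and Mmp8, and late forms hold S100a8, S100a9 and Retnlg transcripts, so these mRNAs mark stages as well as a lineage. Red cell precursors make hemoglobin from alpha and beta globin chains and heme, and enucleated red cells still hold globin mRNA for some time. Both lineages develop inside bone marrow, next to the bone surface from which stromal cells are released.

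The sequences of 4 globin transcripts are shown because they limit how globin counts can be read. In GENCODE M21 (GRCm38), the coding sequences of Hba-a1 and Hba-a2, each 429 bases long, differed at 1 position, and those of Hbb-bs and Hbb-bt, each 444 bases long, also differed at 1 position. The stretches below run from base 351 to 411 of the alpha and from base 384 to 444 of the beta coding sequences, counted from the start codon, with the differing base in capitals (C381T between Hba-a1 and Hba-a2, C417T between Hbb-bs and Hbb-bt).
Hba-a1: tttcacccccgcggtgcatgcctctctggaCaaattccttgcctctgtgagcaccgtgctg
Hba-a2: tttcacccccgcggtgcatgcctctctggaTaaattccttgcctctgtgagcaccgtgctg
Hbb-bs: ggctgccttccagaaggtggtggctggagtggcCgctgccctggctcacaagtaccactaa
Hbb-bt: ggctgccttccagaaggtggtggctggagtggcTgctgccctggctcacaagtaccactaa
Of all 50-base windows of its transcript, Hba-a1 shared 67.5% with another gene, Hba-a2 shared 86.9%, Hbb-bs shared 65.8% and Hbb-bt shared 58.3%. Alignments that were not unique were counted apart from genes, so reads of shared windows may be missing from both genes of a pair. The level of each gene, and of each pair, may therefore be too low. Among the other members, Vpreb1 shared 32.5% of its windows, mostly with Vpreb2, Csf1r shared 17.7% with Hmgxb3, Lyz2 shared 15.4% with Lyz1, Car1 shared 14.5% with Gm5843, Alas2 shared 13.8%, mostly with Apex2, and Mpo shared 11.96% with Gm11505. Of the 41 members, 27 shared no window with any other gene. The library kit did not mark strand, so reads of Alas2, Csf1r and Mpo cannot be told apart from those of genes that overlap them.

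Promoters of 2 neutrophil and 2 erythroid members are shown, a secondary and a primary granule gene, a globin gene and a gene of heme synthesis, whose levels by library are described below. Each run is the 250 bases before the start site in RefSeq, on GRCm38.p6, 5′ to 3′ on the gene's own strand. Capitals mark 4 short motifs searched on both strands: AGATAA, which GATA factors bind, CACCC, which Klf1 and related factors bind, TTNCNNAA, a form of the site of C/EBP factors, and GAGGAA, the core of the PU.1 site. The positions were chr9:110419558-110419807 (plus strand) for Ngp, chr10:79886062-79886311 (plus strand) for Elane, chr7:103827929-103828178 (minus strand) for Hbb-bs and chrX:150547167-150547416 (plus strand) for Alas2.
Ngp: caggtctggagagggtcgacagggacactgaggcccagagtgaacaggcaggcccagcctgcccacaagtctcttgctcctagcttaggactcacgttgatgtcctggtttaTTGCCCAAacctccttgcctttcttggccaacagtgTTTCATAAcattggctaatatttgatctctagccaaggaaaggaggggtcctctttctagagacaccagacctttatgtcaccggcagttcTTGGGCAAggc
Elane: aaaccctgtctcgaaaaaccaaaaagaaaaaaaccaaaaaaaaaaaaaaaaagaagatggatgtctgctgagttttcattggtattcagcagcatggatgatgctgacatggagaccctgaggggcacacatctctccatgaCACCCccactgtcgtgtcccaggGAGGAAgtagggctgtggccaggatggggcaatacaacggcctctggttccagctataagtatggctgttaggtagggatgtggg
Hbb-bs: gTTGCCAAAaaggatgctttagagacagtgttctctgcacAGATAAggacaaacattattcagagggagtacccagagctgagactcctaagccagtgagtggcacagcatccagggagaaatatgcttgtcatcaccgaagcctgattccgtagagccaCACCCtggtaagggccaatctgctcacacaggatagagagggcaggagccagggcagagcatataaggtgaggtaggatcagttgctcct
Alas2: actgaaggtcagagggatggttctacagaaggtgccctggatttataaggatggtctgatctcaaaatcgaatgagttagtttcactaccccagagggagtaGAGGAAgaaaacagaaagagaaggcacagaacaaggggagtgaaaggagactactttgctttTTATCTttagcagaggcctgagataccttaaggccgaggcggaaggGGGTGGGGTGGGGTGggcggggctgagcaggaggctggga
Ngp held the C/EBP letters at 3 places, which began 138, 102 and 11 bases before the start site. Elane held the PU.1 letters 85 bases and the CACCC letters 108 bases before it. Hbb-bs held the GATA letters 210 bases, the CACCC letters 90 bases and the C/EBP letters 249 bases before it. Alas2 held the GATA letters 86 bases before it, the CACCC letters at 40, 35 and 30 bases and the PU.1 letters at 148 bases. Promoters were in the table for 32 of the 41 members, among them all 12 neutrophil and 8 of 11 erythroid genes. The PU.1 letters were in 8 of 12 neutrophil and 1 of 8 erythroid promoters, and in 23.1% of the 27025 promoters of all genes. The C/EBP letters were in 8 of 12 neutrophil and 5 of 8 erythroid promoters, and in 36.9% of all. AGATAA was in 2 of 12 neutrophil and 2 of 8 erythroid promoters, against 10.3% of all, and CACCC was in 9 of 12 and 8 of 8, against 51.3% of all. A match of letters is a description of the sequence and not a bound site.

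The libraries differed in depth, with 64099849 to 92683497 counts on genes in OPCs and 44217695 to 50509592 in SSCs. Levels are given as CPM, the count of a gene scaled to a library total of 1000000 counts on genes, and 3 counts, taken as the limit of detection, equalled 0.0324 to 0.0468 CPM in OPCs and 0.0594 to 0.0678 CPM in SSCs, a limit that covers counting error only. The type I collagen genes of bone matrix, Col1a1 and Col1a2, took 16.1 to 38.7% of the counts in OPCs and 0.563 to 2.78% in SSCs. Relative to OPCs, SSCs were higher in Ly6a, which encodes Sca-1, by 6.80 ± 1.12 (log2, SE) in WT, 8.62 ± 1.21 in +/1013 and 7.45 ± 1.18 in 1013/1013 mice, with edgeR adjusted p-values of 0.00175, 0.000415 and 0.00112. Sca-1 was an antigen of the sort, so this is a check of the labels. The osteoblast gene Bglap (osteocalcin) was lower in SSCs, by log2 fold changes of -5.75, -6.22 and -4.70 in the same order.

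Leukocyte transcripts stood apart in 3 libraries, 1 each of WT OPCs, 1013/1013 OPCs and WT SSCs. The summed level of the 12 neutrophil granule genes was 17774 CPM in WT OPC replicate 3, 14399 CPM in 1013/1013 OPC replicate 2 and 13061 CPM in WT SSC replicate 3. In the other 14 libraries the sum was between 12.5 and 396.9 CPM in OPCs and between 25.8 and 1159 CPM in SSCs. All 41 genes together took 2.20%, 2.18% and 1.65% of the counts in these 3 libraries, between 0.0125% and 0.113% in the other OPC libraries and between 0.0230% and 0.275% in the other SSC libraries. The 3 libraries carry no label that sets them apart from the other replicates of their groups. They held the 3 highest values for 20 of the 41 members, namely 11 of 12 neutrophil, 3 of 4 monocyte and macrophage, 5 of 5 pan-leukocyte and 1 of 7 lymphoid genes, and for none of the 2 progenitor and mast cell and 11 erythroid genes. The highest value of a member was in 1013/1013 OPC replicate 2 for 24 members, in WT OPC replicate 3 for 8 and in WT SSC replicate 3 for 7. The exceptions were Car1, highest in WT SSC replicate 1, and Cd79a, highest in 1013/1013 SSC replicate 1. Comparisons that include these libraries are given below with and without them in edgeR, an alternative chosen after the data were seen. The 3 libraries were picked by the levels of these same members, so fits without them are not independent of that choice.

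**Figure D1:**
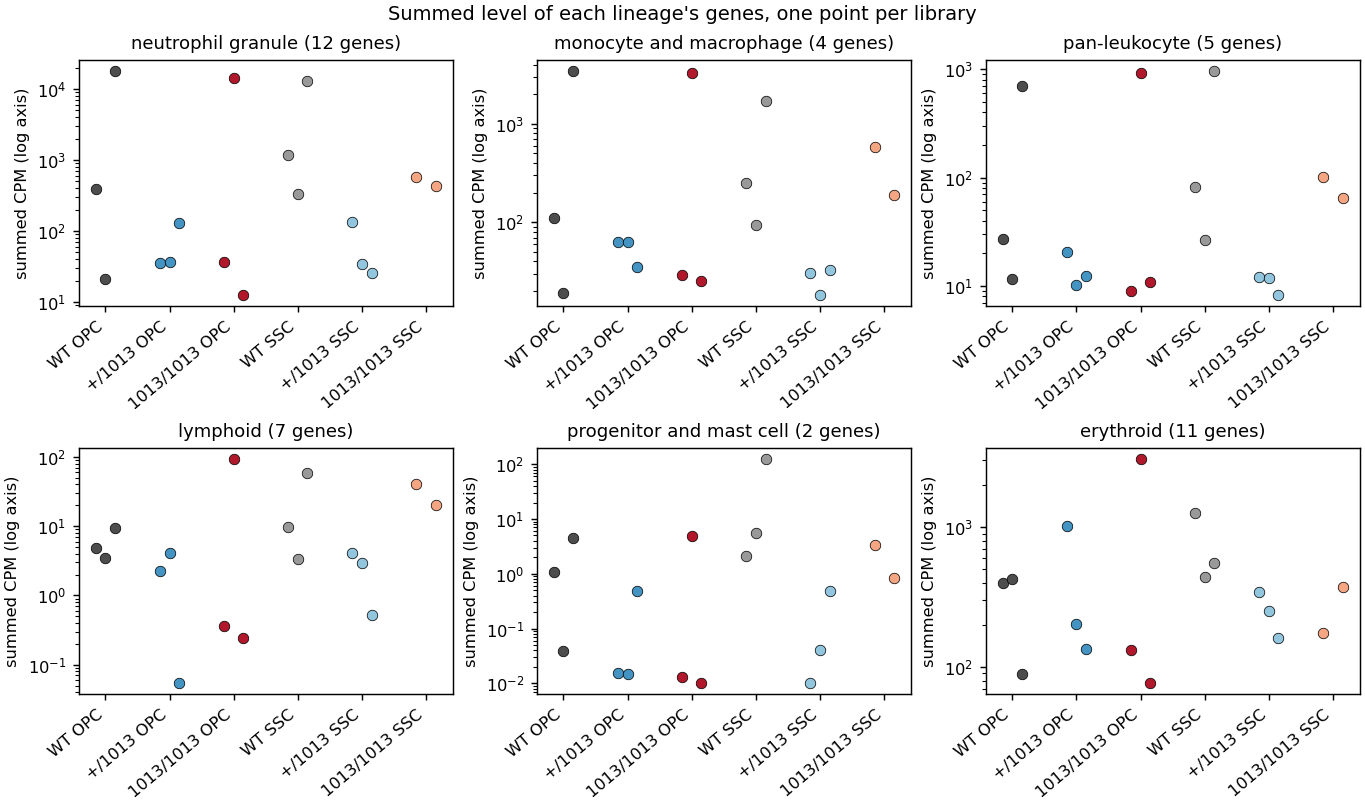
Summed CPM (log axis) of each lineage's members in the 17 libraries, 1 point per library, by cell type and genotype. Neutrophil, monocyte and pan-leukocyte sums were highest in WT OPC replicate 3, 1013/1013 OPC replicate 2 and WT SSC replicate 3, while the highest erythroid sums were in 1013/1013 OPC replicate 2 and WT SSC replicate 1; 1013/1013 OPC replicate 3 and +/1013 SSC replicate 1 had no progenitor or mast cell counts and are drawn at 0.01.

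Among the secondary granule genes, Ngp (neutrophilic granule protein) was found at 130.1, 0.957 and 6449 CPM in WT, 7.96, 4.87 and 47.6 CPM in +/1013 and 2.71, 3845 and 1.65 CPM in 1013/1013 OPCs. In SSCs it was found at 324, 78.6 and 5094 CPM in WT, 26.1, 0.514 and 2.69 CPM in +/1013 and 9.72 and 18.9 CPM in 1013/1013 SSCs. Each of the 3 groups with a library standing apart held 1 such value above 3000 CPM, and in +/1013 mice Ngp was at most 47.6 CPM in either cell type. Ltf, the iron-binding lactoferrin, followed with 124, 1.76 and 4332 CPM in WT, 3.31, 3.99 and 43.2 CPM in +/1013 and 0.0132, 3480.2 and 0.375 CPM in 1013/1013 OPCs. Its levels in SSCs were 196, 72.01 and 3927 CPM in WT, 20.4, 0.247 and 2.91 CPM in +/1013 and 0.0905 and 1.03 CPM in 1013/1013 SSCs. Ltf was near 0 in 1013/1013 OPC replicate 1 and 1013/1013 SSC replicate 1, where S100a9 was clearly detected. Camp, the cathelicidin peptide, reached 1156 CPM, the iron-chelator carrier Lcn2 1292 CPM and the surface protein Cd177 767 CPM, all in WT OPC replicate 3, while the collagenase Mmp8 was highest in 1013/1013 OPC replicate 2, at 390.5 CPM. Mmp8 was at 0 in +/1013 SSC replicates 2 and 3.

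The primary granule genes did not keep the same proportion to the secondary ones. Mpo, which makes hypochlorous acid in the phagosome, was found at 0, 4.39 and 409 CPM in WT, 0.640, 6.77 and 0 CPM in +/1013 and 0, 1448 and 0.0600 CPM in 1013/1013 OPCs. SSCs held 52.3, 1.91 and 303 CPM in WT, 1.55, 1.60 and 0.244 CPM in +/1013 and 0.249 and 10.7 CPM in 1013/1013 SSCs. No count of Mpo was found in WT OPC replicate 1 or +/1013 OPC replicate 3, which held Ngp at 130.1 and 47.6 CPM. Elane, neutrophil elastase, was highest in 1013/1013 OPC replicate 2 at 500.0 CPM, against 196 CPM in WT OPC replicate 3 and 107 CPM in WT SSC replicate 3. Prtn3, proteinase 3, followed the same order with 114, 58.4 and 33.6 CPM. The ratio of Mpo to Ngp in CPM, compared between libraries only, was 0.377 in 1013/1013 OPC replicate 2, 0.0634 in WT OPC replicate 3 and 0.0594 in WT SSC replicate 3, and was 4.58 in WT OPC replicate 2, where Ngp was below 1 CPM. Among the 3 libraries with the most neutrophil transcripts, 1013/1013 OPC replicate 2 thus held more Mpo relative to Ngp. WT OPC replicate 3 and WT SSC replicate 3 were alike in this ratio.

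S100a9, a subunit of calprotectin, is abundant in late neutrophils and also made by monocytes. It was found at 38.1, 6.83 and 2006 CPM in WT, 10.8, 5.43 and 10.4 CPM in +/1013 and 8.81, 1508 and 3.02 CPM in 1013/1013 OPCs. In the SSC libraries it was at 226, 75.8 and 1047 CPM in WT, 34.4, 8.70 and 6.04 CPM in +/1013 and 258 and 163 CPM in 1013/1013 SSCs. S100a8, the partner subunit, moved with it, at 1.38 to 878 CPM in OPCs and 2.07 to 558 CPM in SSCs. Retnlg, a resistin-like protein of mature neutrophils, was found at 12.9, 0.750 and 62.4 CPM in WT, 0.374, 0.903 and 2.86 CPM in +/1013 and 8.48, 409 and 0.375 CPM in 1013/1013 OPCs. Its levels in SSCs were 39.5, 11.3 and 94.4 CPM in WT, 0.141, 0.946 and 1.12 CPM in +/1013 and 128 and 79.3 CPM in 1013/1013 SSCs. Retnlg was the neutrophil gene for which the 3 libraries did not take the 3 highest values, because both libraries of 1013/1013 SSCs lay above WT OPC replicate 3. Per length, as TPM (transcripts scaled to the same total after division by gene length), S100a8, S100a9 and Retnlg made up 96.8% and 90.9% of the neutrophil genes' TPM in the 2 libraries of 1013/1013 SSCs, 30.3% in WT SSC replicate 3 and 57.6% and 63.99% in the other WT SSC libraries. The ratio of Ngp to S100a9 in CPM was 0.0376 and 0.116 in 1013/1013 SSCs, 1.44, 1.04 and 4.87 in WT SSCs, and 0.759, 0.0591 and 0.444 in +/1013 SSCs. The split of the 12 genes by granule stage was made after their values were seen, and these shares are a description.

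**Figure D2:**
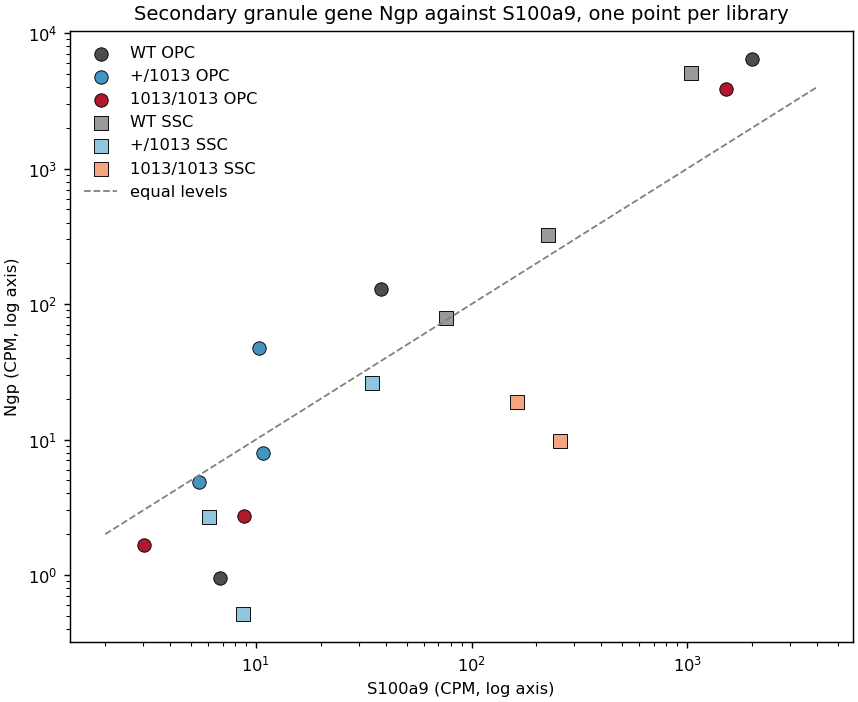
Level of Ngp against that of S100a9 in the 17 libraries, both in CPM on log axes, 1 point per library by cell type and genotype. The dashed line marks equal CPM, the 3 libraries with the most neutrophil transcripts lie above it, and both libraries of 1013/1013 SSCs lie well below it, with Ngp at 9.72 and 18.9 CPM at S100a9 levels of 258 and 163 CPM.

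Among the monocyte and macrophage genes, Lyz2, the lysozyme of myeloid cells including neutrophils, was found at 108, 15.7 and 3389.6 CPM in WT, 62.6, 61.1 and 32.7 CPM in +/1013 and 25.3, 3189 and 24.1 CPM in 1013/1013 OPCs. SSCs held 224, 85.01 and 1659 CPM in WT, 30.8, 15.7 and 30.6 CPM in +/1013 and 579 and 179 CPM in 1013/1013 SSCs. No library lacked Lyz2. Csf1r, the receptor that monocytes and macrophages need to survive, was found at 0.551, 2.28 and 15.1 CPM in WT, 1.09, 0.812 and 0.345 CPM in +/1013 and 1.40, 59.04 and 0.810 CPM in 1013/1013 OPCs. In the SSC libraries it was at 11.3, 2.55 and 37.6 CPM in WT, 0, 0.905 and 0.732 CPM in +/1013 and 0 and 1.23 CPM in 1013/1013 SSCs. Csf1r was at 0 in 1013/1013 SSC replicate 1, which held Lyz2 at 579 CPM. The macrophage surface gene Adgre1 (F4/80) was at 0 in 6 of 9 OPC libraries and 4 of 8 SSC libraries, and reached 17.3 CPM in 1013/1013 OPC replicate 2. The lysosomal gene Cd68 was at most 20.9 CPM, in the same library.

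The 5 pan-leukocyte genes summed to at most 100.7 CPM in each of the libraries other than those 3. Ptprc, the gene of the CD45 antigen used in the gate, was found at 2.16, 1.85 and 38.8 CPM in WT, 2.89, 0.0150 and 0.561 CPM in +/1013 and 0.621, 101 and 0.555 CPM in 1013/1013 OPCs. Its levels in SSCs were 10.04, 1.73 and 169.9 CPM in WT, 0.121, 0.987 and 0 CPM in +/1013 and 0.0452 and 9.78 CPM in 1013/1013 SSCs. Ptprc was thus not at 0 in any library but +/1013 SSC replicate 3, and the highest value was in a WT SSC library. Coro1a, an actin regulator of leukocytes, was at 2.65 to 456 CPM in OPCs and 3.07 to 355 CPM in SSCs. Laptm5, a lysosomal protein of leukocytes, was at 1.32 to 225 CPM in OPCs and 2.16 to 351 CPM in SSCs. Both adaptor genes of activating receptors were highest in 1013/1013 OPC replicate 2, Tyrobp at 77.2 CPM and Fcer1g at 65.00 CPM.

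The lymphoid genes separated the 3 libraries from each other. Cd79b, a chain of the B cell receptor, was found at 3.32, 1.95 and 0 CPM in WT, 1.26, 2.30 and 0 CPM in +/1013 and 0, 30.4 and 0 CPM in 1013/1013 OPCs. SSCs held 3.75, 1.23 and 19.2 CPM in WT, 0.625, 0 and 0.122 CPM in +/1013 and 14.1 and 7.92 CPM in 1013/1013 SSCs. No count of Cd79b was found in WT OPC replicate 3, which had the highest neutrophil sum, while 1013/1013 OPC replicate 2 had the highest level of the gene. Its partner Cd79a was at 0.307, 17.4 and 13.2 CPM in the 3 libraries and at 20.1 and 5.90 CPM in 1013/1013 SSCs. Ms4a1 (CD20), a gene of later B cells, was above 0 in 4 libraries, at 8.60 CPM in 1013/1013 OPC replicate 2, 5.75 CPM in WT SSC replicate 3, 2.69 CPM in 1013/1013 SSC replicate 2 and 0.587 CPM in +/1013 OPC replicate 2. Vpreb1, the surrogate light chain of B cell precursors, was at most 1.89 CPM. The T cell receptor chain Cd3e was at 0 in 14 of 17 libraries and at most 0.598 CPM, and the coreceptor Cd4 was at most 3.82 CPM. Nkg7, a gene of cytotoxic cells, was at 31.7 CPM in 1013/1013 OPC replicate 2, 14.02 CPM in WT SSC replicate 3 and 8.99 CPM in WT OPC replicate 3, the highest 3 values in the series.

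Kit, the stem cell factor receptor of progenitors and mast cells and an antigen of the gate, was found at 1.09, 0.0388 and 4.58 CPM in WT, 0.0156, 0.0150 and 0.475 CPM in +/1013 and 0.0132, 4.99 and 0 CPM in 1013/1013 OPCs. In the SSC libraries it was at 2.12, 5.41 and 120.0 CPM in WT, 0, 0.0411 and 0.488 CPM in +/1013 and 3.35 and 0.594 CPM in 1013/1013 SSCs. WT SSC replicate 3 stood alone, since Kit was at most 5.41 CPM in every other library, those of the other 2 libraries rich in neutrophil transcripts included. The mast cell protease gene Cpa3 was at 0 in 14 libraries and was 2.72 CPM in WT SSC replicate 3, 0.257 CPM in 1013/1013 SSC replicate 2 and 0.123 CPM in WT SSC replicate 2. Of the listed progenitor genes that are no members, Flt3 (108 CPM) and Gata2 (80.5 CPM) were also highest among SSCs in WT SSC replicate 3. Cd34 was not, at 759 CPM there and up to 2181 CPM in 1013/1013 SSC replicate 1. A summed list of proliferation genes was 236.0 CPM there against 10.03 to 37.2 CPM in the other SSC libraries. Their part in the Kit level was not tested.

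The erythroid genes followed another order of libraries. Hbb-bs, a beta globin, was found at 179, 209 and 26.8 CPM in WT, 493, 74.01 and 51.6 CPM in +/1013 and 50.9, 1466 and 3.77 CPM in 1013/1013 OPCs. Its levels in SSCs were 514, 192 and 79.6 CPM in WT, 111, 107 and 61.5 CPM in +/1013 and 66.1 and 172 CPM in 1013/1013 SSCs. The highest library was 1013/1013 OPC replicate 2, but WT OPC replicate 3, with the most neutrophil transcripts of the series, held 26.8 CPM, less than 7 of the other 8 OPC libraries. Hbb-bt, the other adult beta globin, was at 1.44 to 413 CPM in OPCs and 24.1 to 141 CPM in SSCs. Alpha globin Hba-a1 was at 0.705 to 306 CPM in OPCs and 25.6 to 250.4 CPM in SSCs, and Hba-a2 was at 0.405 to 223 and 16.4 to 177 CPM. Summed alpha globin was 529 CPM in the highest OPC library and 427 CPM in the highest SSC library. The globin pairs share most of their sequence, as printed above, so only their sums are compared between cell types. These sums may lack shared reads too.

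Alas2, the erythroid form of the first enzyme of heme synthesis, was found at 42.1, 21.7 and 1.28 CPM in WT, 91.9, 11.9 and 8.40 CPM in +/1013 and 6.97, 265 and 0 CPM in 1013/1013 OPCs. SSCs held 51.8, 12.9 and 10.97 CPM in WT, 25.03, 5.43 and 3.72 CPM in +/1013 and 0.0226 and 14.6 CPM in 1013/1013 SSCs. It was at 0 in 1013/1013 OPC replicate 3 and at 1 count in 1013/1013 SSC replicate 1, where beta globin was still present. Slc4a1, the band 3 anion exchanger of the red cell membrane, was found at 17.2, 0.349 and 0 CPM in WT, 7.39, 2.80 and 0 CPM in +/1013 and 4.90, 88.9 and 1.79 CPM in 1013/1013 OPCs. In the SSC libraries it was at 14.3, 8.35 and 9.30 CPM in WT, 5.68, 0.514 and 0.0407 CPM in +/1013 and 0 and 0.257 CPM in 1013/1013 SSCs. Of the genes of nucleated erythroid precursors, Klf1, the transcription factor of adult globin expression, was at most 9.17 CPM and the blood group protein gene Ermap at most 11.9 CPM, both in 1013/1013 OPC replicate 2. The carbonic anhydrase gene Car1 was at 0.423 to 10.9 CPM in OPCs and 0 to 19.2 CPM in SSCs.

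Car2 and Tfrc are also made outside red cells. Car2, a carbonic anhydrase that osteoclasts also make, was at 294 CPM in WT SSC replicate 3 and 187 CPM in 1013/1013 OPC replicate 2, and otherwise at most 67.04 CPM. Tfrc, the transferrin receptor that all dividing cells use to take up iron, was found at 24.1, 34.03 and 16.6 CPM in WT, 13.2, 27.2 and 30.2 CPM in +/1013 and 30.97, 72.1 and 49.6 CPM in 1013/1013 OPCs. Its levels in SSCs were 30.04, 15.2 and 38.3 CPM in WT, 17.4, 22.1 and 7.93 CPM in +/1013 and 14.7 and 18.6 CPM in 1013/1013 SSCs. No library was near 0, and levels ran from 13.2 to 72.1 CPM in OPCs and 7.93 to 38.3 CPM in SSCs. Tfrc is the CD71 antigen of the gate.

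**Figure D3:**
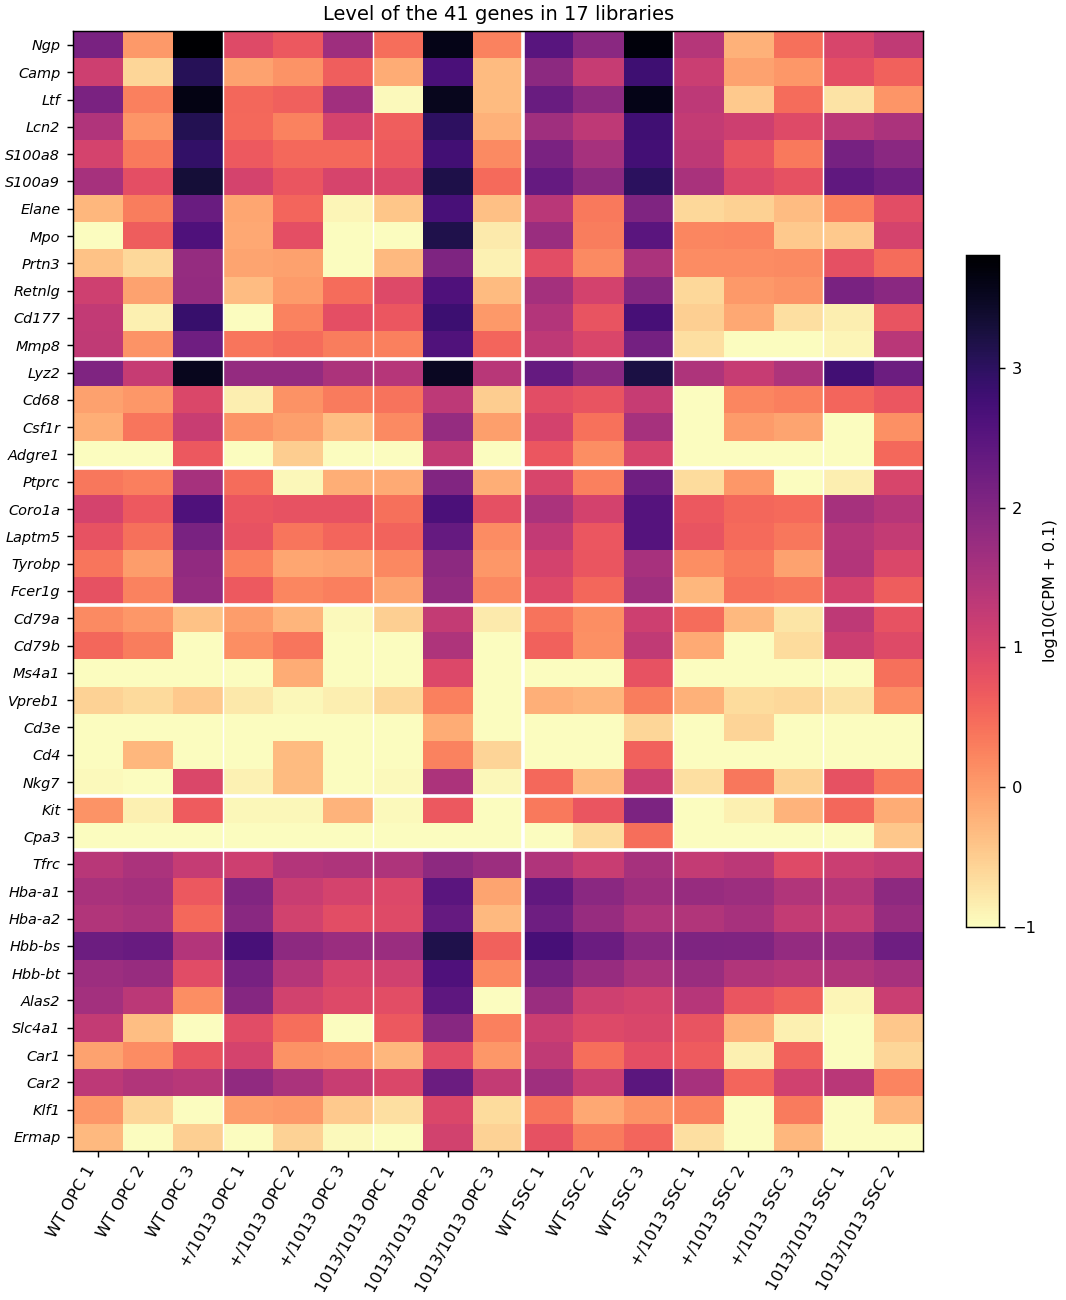
Level of each of the 41 members (rows, by lineage) in the 17 libraries (columns, by cell type and genotype), as log10 of CPM after adding 0.1. The leukocyte members are darkest in WT OPC replicate 3, 1013/1013 OPC replicate 2 and WT SSC replicate 3, the B cell members are near 0 in the first of these, and the globins are present in every library.

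To describe which lineage each library held, members were summed per length, in TPM. The neutrophil genes led in 5 libraries, which were the 3 with the most neutrophil transcripts and both libraries of 1013/1013 SSCs, and the erythroid genes led in the other 12. In WT OPC replicate 3, neutrophil genes made up 82.7% of the members' TPM, monocyte and macrophage genes 14.8% and erythroid genes 0.422%. In 1013/1013 OPC replicate 2 these shares were 63.2%, 14.2% and 19.8%, and in WT SSC replicate 3 they were 82.6%, 10.8% and 3.31%. The lymphoid genes made up 0.0587% in WT OPC replicate 3, 0.411% in 1013/1013 OPC replicate 2 and 0.348% in WT SSC replicate 3. Other libraries reached as high a share, such as 0.417% in WT OPC replicate 1 and 1.81% in 1013/1013 SSC replicate 1. The share includes Nkg7 and is no mark of B cells. By level, Cd79b was at 30.4 CPM in 1013/1013 OPC replicate 2 and at 0 in WT OPC replicate 3. The former library combined granulocyte, B cell and red cell transcripts, and the latter was mostly granulocyte. Among the 12 libraries led by erythroid genes, their share ran from 40.1% in 1013/1013 OPC replicate 3 to 92.04% in +/1013 OPC replicate 1. The erythroid sum includes Tfrc and Car2, which are also made outside red cells. In 1013/1013 OPC replicate 3 these were at 49.6 and 17.5 CPM, against 5.21 CPM of summed beta and 1.11 CPM of summed alpha globin. The lead in that library is therefore no mark of red cells. The 3 libraries of +/1013 SSCs were 67.0%, 83.7% and 77.1% erythroid by this measure. In 1013/1013 SSCs the share of neutrophil genes was 56.1% and 48.9%, and that of monocyte and macrophage genes was 26.3% and 11.2%. Lyz2, which neutrophils also make, held most of the monocyte and macrophage sum. It was 579 of 582.5 CPM in 1013/1013 SSC replicate 1, where Csf1r and Adgre1 were at 0, and 3389.6 of 3418.8 CPM in WT OPC replicate 3. These shares therefore do not separate monocytes from neutrophils. Absolute amounts differed widely beneath these shares, since the members summed to between 257.7 and 71406 TPM in OPCs and between 804.6 and 41345 TPM in SSCs.

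**Figure D4:**
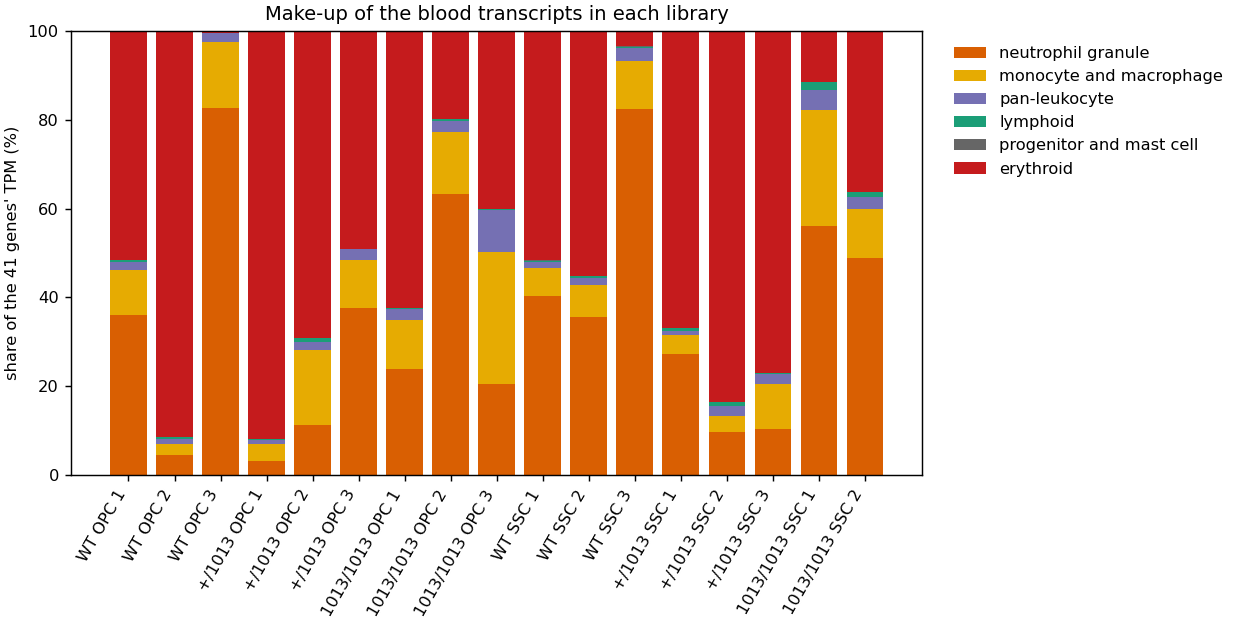
Share of the 41 members' summed TPM (percent, bars from 0 to 100) taken by each lineage in each of the 17 libraries. Neutrophil genes hold the largest part in 5 libraries, with 82.7% in WT OPC replicate 3. Erythroid genes, with Tfrc and Car2 counted among them, hold it in the other 12.

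Mutant and WT OPCs were compared first, to ask whether the 1013 allele went with a different level of blood transcripts. A call required an edgeR quasi-likelihood p that, after Benjamini-Hochberg adjustment, was under 0.05, together with a difference of 1.5-fold or more. Of the 38 members that passed the filter on low counts in OPCs, none was called in +/1013 against WT, where edgeR called 0% of all genes. The unadjusted p was under 0.05 for 2 of the 38 (2.04% of all genes), and DESeq2 called 0 of the 13 members for which it gave an adjusted p (0.367% of all genes). The 2 were the calprotectin genes, S100a8 with a log2 fold change of -6.56 ± 2.84 (SE, adjusted p = 1) and S100a9 with -6.49 ± 2.81 (adjusted p = 1), followed by Tyrobp with -4.71 ± 2.13 (adjusted p = 1). Their groups overlapped: S100a9 in WT OPC replicate 2 was below 2 of the 3 +/1013 libraries. The members had a median log2 fold change of -3.67, against -0.00418 over all genes. Without the 3 libraries, which leaves out WT OPC replicate 3, it was -0.70, with 0 of 36 members called (0 of 16892 genes). DESeq2 gave an adjusted p for 15816 of 16207 genes in both OPC comparisons, but for only 13 of the 38 members. Its count of 0 therefore leaves most members untested. In 1013/1013 against WT OPCs, 0 of 38 members were called by edgeR (0.00617% of all genes), 0 had an unadjusted p under 0.05 (3.38%) and DESeq2 called 0 of 13 (0.266%). The 3 smallest p-values belonged to Tfrc (log2 fold change 0.92 ± 0.48, SE), Ermap (4.22 ± 2.66) and Klf1 (3.02 ± 2.05), each with an adjusted p of 1.00. For Ermap and Klf1 the sign turned without 1013/1013 OPC replicate 2, to -1.16 and -1.78. The members' median of 1.06, against 0.01 over all genes, also turned, to -1.85 without the 3 libraries and to -4.56 without 1013/1013 OPC replicate 2 alone, and it was 4.03 without WT OPC replicate 3 alone. Without the 3 libraries, edgeR called 0 of 36 members (0 of 16892 genes). An unadjusted p under 0.05 was then found for 5. No share of all genes is given for this count, so it cannot be read as an excess over the background.

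In SSCs, 38 of 39 blood transcripts had a lower fitted level in +/1013 than in WT mice, while none passed the edgeR threshold. WT and mutant SSC libraries also differed as a whole. Genes with a count numbered 21449 to 22599 in WT and 15748 to 19227 in mutant SSCs. Col1a1 and Col1a2 took 2.24 to 2.78% of the counts in WT and 0.563 to 1.17% in mutant SSCs. Genotype and this difference between libraries cannot be told apart. Of 39 members tested, 0 were called (0.0736% of all genes), but 22 had an unadjusted p under 0.05 (17.3% of all genes), and DESeq2 called 21 of the 38 with an adjusted p, all lower in +/1013 (8.33% of all genes). These 21 were all 12 neutrophil genes, Lyz2 and Adgre1 among the macrophage genes, all 5 pan-leukocyte genes, Cd79b and Kit, and no erythroid gene. In 24 of 39 members every +/1013 library lay below every WT library, a pattern that held for 24% of all genes. It held for 12 of 12 neutrophil, 4 of 4 monocyte and macrophage, 4 of 5 pan-leukocyte and 2 of 11 erythroid genes. The median log2 fold change was -6.11 for the neutrophil genes, -4.56 for the monocyte and macrophage genes, -4.86 for the pan-leukocyte genes, -2.50 for the lymphoid genes, -7.99 for the 2 progenitor and mast cell genes and -1.27 for the erythroid genes, with -4.43 over all members and -0.11 over all genes. The smallest p-values belonged to Retnlg (log2 fold change -5.78 ± 1.01, SE, adjusted p = 0.0934), Elane (-7.31 ± 1.53, adjusted p = 0.117) and S100a9 (-4.54 ± 1.10, adjusted p = 0.146). For Adgre1, at 0 in all 3 +/1013 libraries, the WT mean was at least 91.5-fold higher than the limit of 3 counts per library. Without the 3 libraries, 0 of 37 members were called, 16 had an unadjusted p under 0.05 (11.4% of all genes) and the median was -2.38, against -0.05 over all genes. The call of these genes depended on the tool, with 0 calls by edgeR and 21 by DESeq2.

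In 1013/1013 against WT SSCs the fold changes were uneven among the lineages and among the neutrophil genes. edgeR called 0 of 39 members (0% of all genes). An unadjusted p under 0.05 was found for 7 of 39, no higher a share than the 18.3% of all genes. DESeq2 called 7 of 38, all lower in 1013/1013 (11.2% of all genes). The 7 were the same genes by both measures: the secondary granule genes Ngp, Ltf, Camp and Cd177 and the erythroid genes Slc4a1, Car1 and Ermap. Every 1013/1013 library lay below every WT library in 9 of 39 members, against 33.1% of all genes and so at no higher a share than the background. The smallest p-values belonged to Ermap (log2 fold change -10.38 ± 2.70, SE, adjusted p = 0.155), Ltf (-10.92 ± 3.14, adjusted p = 0.164) and Car1 (-6.55 ± 2.36, adjusted p = 0.218). Ermap was at 0 in both 1013/1013 libraries, so its fitted value is no bound, and the WT mean was at least 59.9-fold higher than the limit of 3 counts per library. Retnlg lay on the other side, with 128 and 79.3 CPM in 1013/1013 and 39.5, 11.3 and 94.4 CPM in WT SSCs, groups that overlapped. The median was -2.87 for the neutrophil genes, -1.47 for the erythroid genes and -0.06 for the lymphoid genes, with -1.48 over all members and -0.23 over all genes. Without the 3 libraries, of which WT SSC replicate 3 is the 1 in this comparison, 0 of 37 members were called, 4 had an unadjusted p under 0.05 (13.5% of all genes) and the median was -0.71, against -0.13 over all genes. Without 1013/1013 SSC replicate 2, which leaves 1 library in that group, the median was -3.26. The +/1013 and 1013/1013 comparisons share their WT libraries.

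**Figure D5:**
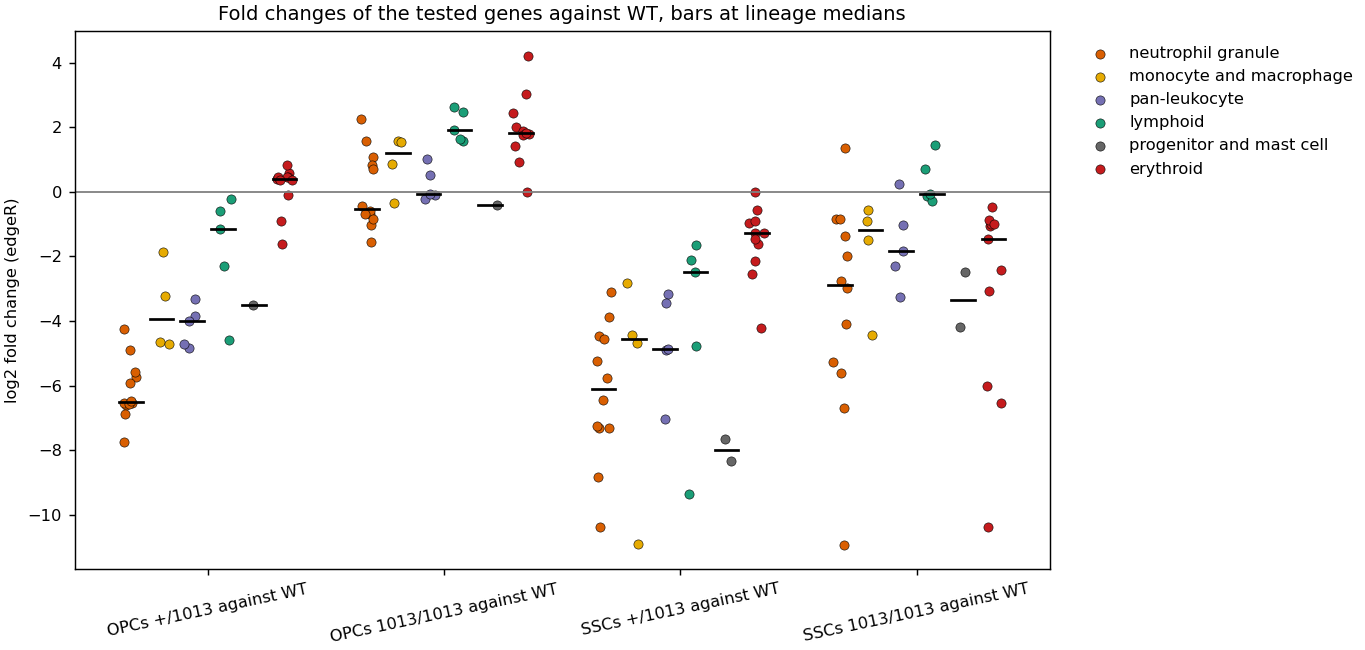
Log2 fold change of each tested member, 1 point per gene by lineage and black bars at the lineage medians, in each comparison of mutant with WT libraries, with 0 as no difference. In +/1013 SSCs 38 of 39 members lie below 0, in 1013/1013 SSCs 35 of 39, in +/1013 OPCs 30 of 38 and in 1013/1013 OPCs 13 of 38, and points far from 0 include genes with 1 group at 0 counts, whose fitted values are not bounds.

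SSCs were also set against OPCs within each genotype. In WT mice, 0 of 41 members were called by edgeR (11.4% of all genes), 0 had an unadjusted p under 0.05 (26.7%) and DESeq2 called 0 of 33 (21.1%). The smallest p-values belonged to Cpa3 (log2 fold change 8.34 ± 3.41, SE, adjusted p = 0.191), Ms4a1 (9.36 ± 4.98, adjusted p = 0.260) and Kit (3.58 ± 2.36, adjusted p = 0.351). Cpa3 and Ms4a1 were at 0 in all WT OPC libraries, so these fitted values are no bounds, and the SSC means were at least 23.7-fold and 47.9-fold higher than the limit of 3 counts per library. Both means came mainly from WT SSC replicate 3. The members' median log2 fold change was 0.22, against 0.17 over all genes. It was 0.90 without the 3 libraries, 2.81 without WT OPC replicate 3 alone and -0.83 without WT SSC replicate 3 alone. Without the 3 libraries, edgeR called 0 of 39 members (1020 of 19085 genes). An unadjusted p under 0.05 was then found for 4. No share of all genes is given for this count, so it cannot be read as an excess either. In +/1013 mice, edgeR called 0 of 41 (12.5% of all genes), 1 had an unadjusted p under 0.05 (27.6%) and DESeq2 called 3 of 33 (24%), which were Mmp8, Adgre1 and Cd4, all lower in SSCs. Mmp8 had a log2 fold change of -6.52 ± 2.91 (SE, adjusted p = 0.164), Tfrc of -1.06 ± 0.51 (adjusted p = 0.198) and Cd4 of -6.30 ± 3.93 (adjusted p = 0.320), and Tfrc was not called by DESeq2. Adgre1 and Cd4 were at 0 in all +/1013 SSCs and were found in +/1013 OPCs in replicate 2 alone, at 0.211 and 0.376 CPM. Their fitted values are no bounds: the OPC means were at least 1.15-fold higher for Adgre1 and 2.05-fold higher for Cd4 than the limit of 3 counts per library.

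In 1013/1013 mice, Tfrc was the 1 member of 41 called by edgeR (13.1% of all genes). It was lower in SSCs, by a log2 fold change of -2.00 ± 0.61 (SE, adjusted p = 0.0446), with 14.7 and 18.6 CPM in SSCs and 30.97, 72.1 and 49.6 CPM in OPCs, groups that did not overlap. The call was lost when any of the 5 libraries compared, other than 1013/1013 OPC replicate 1, was left out, and without the 3 libraries the change was -1.66 (adjusted p = 0.120). An unadjusted p under 0.05 was found for 5 of 41 (28.3% of all genes), and DESeq2 called 7 of 33 (27.4%), namely Tfrc, Slc4a1, Car1, Car2, Ermap, Csf1r and Cd4, all lower in SSCs. Ermap had a log2 fold change of -11.16 ± 4.24 (SE, adjusted p = 0.106) with both SSC libraries at 0 (at least 63.4-fold against the limit of 3 counts per library), and Car1 of -5.47 ± 2.22 (adjusted p = 0.126). The direction of this comparison depended on 1013/1013 OPC replicate 2. With all libraries 39 of 41 members had a log2 fold change below 0 and the median was -2.53, while the median was 2.84 without that library alone, with 0 members called. The 3 libraries were picked by high levels of these same genes, so leaving out 1013/1013 OPC replicate 2 favours higher values in SSCs. Without all 3 libraries the median was 2.79. In that subset edgeR called 7 of 39 members, all higher in SSCs (11.5% of all genes), a description and not an independent test. These were S100a9 (4.81 ± 1.06), S100a8 (4.86 ± 1.14), Lyz2 (3.52 ± 0.84), Tyrobp (3.46 ± 0.83), Laptm5 (2.78 ± 0.76), Coro1a (2.34 ± 0.66) and Cd79b (12.18 ± 3.43, at 0 in both OPC libraries that remained), with adjusted p-values from 0.0162 to 0.0480. In that subset S100a9 was at 258 and 163 CPM in SSCs and at 8.81 and 3.02 CPM in OPCs.

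Whether the effect of the allele differed between SSCs and OPCs was tested as an interaction. For +/1013, 0 of 41 members were called by edgeR (0.084% of all genes), 1 had an unadjusted p under 0.05 (10.6%) and DESeq2 called 0 of 32 (2.67%). For 1013/1013, 0 of 41 were called by edgeR (0.153%), 4 had an unadjusted p under 0.05 (15%) and DESeq2 called 3 of 33 (6.83%), which were Ermap, Car1 and Cd4. The smallest p-values for +/1013 belonged to Ms4a1 (difference of log2 fold changes -16.29 ± 6.82, SE, adjusted p = 0.450), Cd4 (-8.57 ± 4.92, adjusted p = 0.582) and Car2 (-2.98 ± 1.76, adjusted p = 0.588). Those for 1013/1013 belonged to Ermap (-14.65 ± 4.89, adjusted p = 0.223), Car1 (-6.55 ± 2.63, adjusted p = 0.279) and Car2 (-4.52 ± 1.98, adjusted p = 0.312). Ms4a1, Cd4 and Ermap each had at least 1 group at 0, so their fitted values are not bounds. The members' median difference was -1.23 for +/1013 and -2.84 for 1013/1013. Without the 3 libraries it was -1.98 for +/1013, with 0 of 39 members called and 4 at an unadjusted p under 0.05 (6.32% of all genes). For 1013/1013 its sign turned, to 1.62, with 0 of 39 called and 4 at an unadjusted p under 0.05 (9.52%). All members had a value in the fits with all libraries, and no difference between the cell types passed the threshold in edgeR.

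Other blood cell genes that were listed with the members were tested in the same fits. No gene was called in any comparison of mutant with WT, out of 91 tested in OPCs (0% of all genes in +/1013 and 0.00617% in 1013/1013) and 101 in SSCs (0.0736% and 0%). In +/1013 against WT SSCs an unadjusted p under 0.05 was found for 11 of 14 other neutrophil genes (median log2 fold change -6.15), against 17.3% of all genes. It was also found for 11 of 14 other pan-leukocyte genes (median -4.74) and 1 of 16 other erythroid genes (median -0.54). Such a p was found for 6 of 15 other monocyte and macrophage and 5 of 12 other B lineage genes. The counts were 4 of 7 stem and progenitor, 1 of 8 other T and NK and 1 of 5 megakaryocyte and platelet genes. It was 0 of 5 for both the osteoclast list and the list of mast cell, basophil and eosinophil genes. In the comparison of SSCs with OPCs, 112 were tested, and edgeR called 11.4% of all genes in WT, 12.5% in +/1013 and 13.1% in 1013/1013 mice. In WT mice 2 were higher in SSCs, the leukocyte actin-binding gene Lsp1 (log2 fold change 1.51 ± 0.26, SE, edgeR adjusted p = 0.00212) and Itga2b, an integrin of platelets (2.43 ± 0.51, adjusted p = 0.00701). In +/1013 mice 3 were higher (Lsp1, Itga2b and Cd34) and 4 lower (Cd163, Calcr, Bpgm and Blnk), and in 1013/1013 mice 1 was higher (Cd34) and 1 lower (Cd163). Cd34 is a gene of progenitor, endothelial and stromal cells. Lsp1 was present in all libraries, at 44.9 to 249 CPM in OPCs and 265 to 478 CPM in SSCs. Other neutrophil genes, among them Chil3, Ly6g and Cebpe, summed to 2439, 1716 and 2164 CPM in WT OPC replicate 3, 1013/1013 OPC replicate 2 and WT SSC replicate 3, and to at most 42.9 CPM in the other OPC and 158.6 CPM in the other SSC libraries.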

How the data were processed

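RNA was isolated from sorted cells, converted to cDNA with the SMART-Seq v4 kit and made into libraries by Tn5 tagmentation, and sequenced in paired-end mode. The authors removed reads shorter than 50 bp, aligned the rest to mm10 with STAR and deposited the raw counts per gene from HTSeq, 1 file per library; FastQC and DESeq2 are also named in the submitters' processing notes. Tool versions, the annotation release and the strand setting of the counting are not given in the sources used here. Counts of all 55335 gene IDs were used as deposited, and 55154 were matched to GENCODE M21 symbols without the ID version. The summary lines of each file (no feature, ambiguous, not unique) were left out of library totals and tests. They made up 1.15 to 4.15%, 1.87 to 3.93% and 5.10 to 10.4% of all counts, those on genes and on summary lines together.

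The counts were tested with edgeR 4.0.16 (limma 3.58.1, R 4.3.3) after filterByExpr and TMM normalization, by the quasi-likelihood test with Benjamini-Hochberg adjustment over all genes tested. The 3 genotypes were fitted together within each cell type, and all 17 libraries together for SSCs against OPCs and for interactions. The filter removed Ms4a1, Cd3e and Cpa3 in OPCs and Cd3e and Cd4 in SSCs. SEs were the log2 fold change divided by the square root of F. DESeq2 1.42.0 was an alternative, as were other normalizations, no filter, leaving out each library, a replicate block and leaving out the 3 libraries with the most neutrophil transcripts. TPM used summed exon lengths. All members are given by their levels; fold changes are printed for members called, or for the 3 with the smallest p where fewer than 3 were called. The members and the lists of other genes (149 of 150 matched) were chosen with earlier results of these data known. The fits were tested on simulated counts with the same spread set for every gene and no library standing apart. That check does not cover members carried by single libraries. Figures and tables were made with Python 3.11.15, pandas 2.3.3, numpy 2.4.6 and matplotlib 3.10.9.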

Additional observations from a re-analysis of the deposited data

How the results depend on the processing

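The number of members called was 0 in 8 of the 9 comparisons and 1 in SSCs against OPCs of 1013/1013 mice. DESeq2 called 21 in SSCs +/1013 against WT, 7 in SSCs 1013/1013 against WT, 3 and 7 in SSCs against OPCs of +/1013 and 1013/1013 mice, and 3 in the 1013/1013 interaction. It also called more of all genes than edgeR, 0.367% and 0.266% against 0% and 0.00617% in OPCs, 8.33% and 11.2% against 0.0736% and 0% in SSCs, 21.1 to 27.4% against 11.4 to 13.1% between cell types, and 2.67% and 6.83% against 0.084% and 0.153% in the interactions. With only the groups compared in the fit, 2 were called in SSCs against OPCs of +/1013 mice and 0 in 1013/1013 mice. In the latter 0 were called with no filter and 2 with the newer form of the edgeR fit. Without the 3 libraries with the most neutrophil transcripts, chosen after these genes' levels were seen, 7 were called there in the other direction. Leaving out 1 library at a time gave 0 to 1 calls in SSCs 1013/1013 against WT, where the 1 was Alas2 without 1013/1013 SSC replicate 2, and 0 to 1 in SSCs against OPCs of 1013/1013 mice; in the other 5 it gave 0. The labels do not say whether replicate numbers pair the samples. Deviations of same-numbered libraries correlated at -0.23 to 0.27, above 0.1 in 4 of 19 pairs, which cannot settle it. The highest value, 0.27, was that of WT SSC and WT OPC replicate 3, both rich in neutrophil transcripts. With the replicate block, 0 members were called in SSCs against OPCs of 1013/1013 mice, and the other counts stayed at 0. The members' median in 1013/1013 against WT OPCs turned from 1.06 to -0.27 with the block.

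In 1013/1013 against WT OPCs, Ermap turned to -0.34 with the replicate block, -1.16 without 1013/1013 OPC replicate 2 and -1.09 without the 3 libraries, and Klf1 to -1.78 and -2.35 under the last 2; over all fits that left out 1 library they ran from -1.16 to 5.11 and from -1.78 to 5.18. Cd4 in the +/1013 interaction turned to 0.77 without the 3 libraries. Group means of lineage sums moved by more than the spread in 11 cases. With totals that leave out Col1a1 and Col1a2, they were 80.5 (monocyte, +/1013 OPCs), 20.99 (pan-leukocyte, +/1013 OPCs) and 9.41 (lymphoid, WT OPCs) CPM. With the most abundant member left out, they were 1.88, 1.67 and 6.42 (monocyte, +/1013 OPCs, +/1013 SSCs and 1013/1013 SSCs), 8.76, 7.06 and 51.9 (pan-leukocyte, the same groups), 0.129 (progenitor, 1013/1013 SSCs) and 158.4 (erythroid, +/1013 SSCs) CPM. The causes of these shifts were not tested, beyond the counts that each alternative adds or removes. Depth limits members with fewer than 3 counts in a library, which were below the limit of detection there.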

Other observations

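Other blood and vessel transcripts also differed by library. Immunoglobulin genes were high in 2 SSC libraries. Igkc, the kappa light chain, was at 2199 CPM in WT SSC replicate 3 and 1842 CPM in +/1013 SSC replicate 1, and at most 32.6 CPM elsewhere. Jchain, the joining chain that plasma cells make, was at 308 and 521 CPM in the same 2 libraries and at most 4.56 CPM elsewhere. Ighm, the heavy chain of IgM, was at 3018 CPM in WT SSC replicate 3 and 11.8 CPM in +/1013 SSC replicate 1, so the pair differed in heavy chain. The B cell members Cd79a and Cd79b were at 2.84 and 0.625 CPM in +/1013 SSC replicate 1. That library also had the highest summed level of endothelial genes, 93.2 CPM, against 3.91 to 40.4 CPM in the other SSC libraries, and the next highest of the series was +/1013 OPC replicate 1 with 51.4 CPM, which had the second highest erythroid sum among OPCs, 1011 CPM. Eosinophil granule genes had their highest levels in 3 SSC libraries. Prg2 was at 42.5 CPM in WT SSC replicate 3, 34.3 CPM in WT SSC replicate 1 and 11.4 CPM in +/1013 SSC replicate 2, and Epx was at 18.2, 7.76 and 1.69 CPM in the same libraries. The other 5 SSC libraries held 0 to 3.10 CPM of Prg2 and 0 to 0.0198 CPM of Epx. In OPCs, Prg2 was at most 7.58 CPM, within the range of the SSC libraries, and Epx at most 0.0154 CPM, 1 count.

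Globin counts differed between the cell types in their balance. The ratio of summed beta globin (Hbb-bs and Hbb-bt) to summed alpha globin (Hba-a1 and Hba-a2) in CPM was 3.31 to 4.69 in the 9 OPC libraries and 1.504 to 2.25 in the 8 SSC libraries, with no overlap. The ratio was noticed after the values were seen and is given without a test. Alignments that were not unique made up 7.75 to 10.4% of all counts, summary lines included, in OPCs and 5.10 to 8.56% in SSCs. Their part in the ratio was not tested. The ratio of Alas2 to Hbb-bs, which compares a gene of heme synthesis with globin, was 0 to 0.236 in OPCs and 0.000342 to 0.226 in SSCs, ranges that overlapped.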
